A study of Mus musculus with 26 samples.

Results

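Trp53 encodes the transcription factor p53, and 7 of its target genes were examined: Mdm2, Trp53inp1, Sesn1, Zmat3, Ccng1, Perp and Phlda3. Probe sets were taken by their platform gene symbol, which gave 13 probe sets for 7 of the 8 named genes, out of 12393 genes with a symbol of their own on the array. No probe set carried the symbol Trp53 in the annotation used, so the level of Trp53 itself was not analysed here. Of the 7 target genes, 6 passed the filter on dim probe sets and were tested among 7435 genes, and Perp did not.

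The S49 line was derived from a mouse T lymphoma. Wild-type (WT) S49 cells arrest and then die when cyclic AMP is raised, and the variant line D-, called deathless, survives it. Cells were exposed to 8-CPT-cAMP, a cyclic AMP analogue that enters cells and activates protein kinase A, at a labelled dose of 100 mM whose unit may be an error. The 26 single-colour Affymetrix arrays were D- cells at 2, 6 and 24 h of treatment (3 arrays each) and untreated D- cells (4 arrays), and WT cells at the same treated times (3 arrays each) and untreated WT cells (4 arrays). Both lines were grown in suspension in medium with horse serum, and no allele, transgene or second agent is given for either. One D- line and one WT line were used, so a difference of D- from WT cannot be told apart from other differences between 2 cultures of S49. Titles of the treated WT samples read untreated with a time, while their source and description fields give the treatment, and they were used as treated. Replicates are called biological, with no word on separate cultures, so the spread behind each p-value may be technical.

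p53 is held at a low level in unstressed cells by Mdm2, a ubiquitin ligase that marks it for destruction and whose own gene p53 activates. When DNA damage or another stress frees p53, it raises the transcription of genes that halt the cell cycle, repair DNA, alter metabolism or kill the cell. Thymocytes are known for dying readily through p53. Whether p53 is functional in S49 cells was not tested here. Several p53 target genes are also read by other factors. Sesn1, for example, is a known FoxO target as well.

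The 6 T cell markers that had a probe set, of 8 listed, had group means between 9.34 and 13.26 in log2 intensity in all 8 groups. Among 4 B cell markers, Cd79b, Ms4a1 and Pax5 stayed under log2 5 in all group means, and Cd79a lay at 4.88 to 5.35. Among 5 myeloid markers the group means were 1.54 to 1.60 for Cd14, 3.14 to 3.53 for Lyz2, 4.99 to 5.27 for Adgre1, 5.66 to 5.83 for Csf1r and 3.86 to 6.24 for Itgam. The mean of the 5 markers lay between 4.65 and 5.33 on D- 24 h arrays, against 4.44 to 4.81 on untreated D- arrays. On WT 24 h arrays the mean of the myeloid markers was 4.69 to 5.57, against 4.49 to 4.69 on untreated WT arrays, and the part of this shift in the 24 h results was not tested. These are log2 values of the mean intensity of the 5, on which the brightest markers weigh most. Of the 5, Itgam had the widest range of group means. Arrays within a group also fell into 2 clusters of 10 and 16 along an axis that held 38.8% of the within-group variance. Each group has arrays in both clusters, but in the cluster of 10 each untreated group has 2 arrays and each treated group only its replicate 1. Fits within the cluster of 10 have 2 residual degrees of freedom. Values of treated groups there rest on 1 treated array per group, and no call is read from them. The cluster of 10 had a Gapdh 3′ minus 5′ log2 difference of -0.146 ± 0.058 (SD, n = 10), against 0.018 ± 0.094 (SD, n = 16) in the other. RNA came from whole cultures, so less RNA per cell and fewer cells that make it cannot be told apart.

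Promoter windows of 300 bases around annotated starts, from RefSeq on GRCm38.p6, are shown for Sesn1, whose level changed with treatment, and for Mdm2 and Ccng1, which had no call on their brightest probe set. The window of Phlda3 held no match. Capitals mark matches, on either strand, to the p53 decamer (the repeated unit of the p53 response element), the FoxO core GTAAACA and TGACG, the short form of the cyclic AMP response element (CRE). The full CRE TGACGTCA was searched too and was in none of them. The Sesn1 windows lie on the plus strand at chr10:41810324-41810623 and chr10:41887189-41887488. The Mdm2 window is on the minus strand at chr10:117710709-117711008 and the Ccng1 window on the minus strand at chr11:40755237-40755536.
Sesn1 window 1: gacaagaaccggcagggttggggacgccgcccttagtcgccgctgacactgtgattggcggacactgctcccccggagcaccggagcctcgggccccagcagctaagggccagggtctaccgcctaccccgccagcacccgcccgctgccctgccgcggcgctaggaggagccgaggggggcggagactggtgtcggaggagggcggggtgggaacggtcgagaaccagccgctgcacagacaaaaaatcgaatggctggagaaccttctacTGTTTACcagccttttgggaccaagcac
Sesn1 window 2: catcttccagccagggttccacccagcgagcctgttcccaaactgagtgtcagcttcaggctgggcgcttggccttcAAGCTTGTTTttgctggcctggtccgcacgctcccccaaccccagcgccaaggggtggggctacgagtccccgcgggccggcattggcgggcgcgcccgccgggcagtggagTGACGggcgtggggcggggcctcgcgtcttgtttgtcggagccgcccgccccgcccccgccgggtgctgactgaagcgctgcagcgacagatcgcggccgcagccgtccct
Mdm2: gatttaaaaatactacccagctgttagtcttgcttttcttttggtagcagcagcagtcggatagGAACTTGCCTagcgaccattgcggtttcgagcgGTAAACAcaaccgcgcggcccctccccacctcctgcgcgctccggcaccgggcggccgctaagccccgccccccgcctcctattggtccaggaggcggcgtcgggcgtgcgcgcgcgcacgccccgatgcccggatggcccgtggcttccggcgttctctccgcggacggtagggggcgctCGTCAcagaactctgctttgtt
Ccng1: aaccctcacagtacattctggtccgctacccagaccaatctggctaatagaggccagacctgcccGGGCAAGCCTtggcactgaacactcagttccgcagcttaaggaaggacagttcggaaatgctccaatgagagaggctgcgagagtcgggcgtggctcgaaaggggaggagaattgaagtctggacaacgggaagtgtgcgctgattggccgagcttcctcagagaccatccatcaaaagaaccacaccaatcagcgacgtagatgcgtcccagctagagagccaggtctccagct
The first Sesn1 window held a FoxO core and the second a p53 decamer and a short CRE. The Mdm2 window held a p53 decamer, a FoxO core and a short CRE, and the Ccng1 window a p53 decamer. Of all 32851 promoter windows of the same length, 8.36% held a p53 decamer, 3.65% the FoxO core, 20.8% the short CRE and 1.79% the full CRE. The full CRE contains the short one, and the marked matches do not overlap. A match is a run of letters and was not tested for binding.

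All levels are the log2 of the deposited GCRMA intensity, in replicate order within each group. Differences are log2 differences of group means with the standard error (SE) of the limma fit, whose residual spread came from all 26 arrays. Adjusted p-values are limma's with Benjamini-Hochberg adjustment over all probe sets tested, and a gene is called, or said to rise or fall, where this is under 0.05. The comparisons of each line at 2, 6 and 24 h share that line's untreated arrays.

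**Figure D1:**
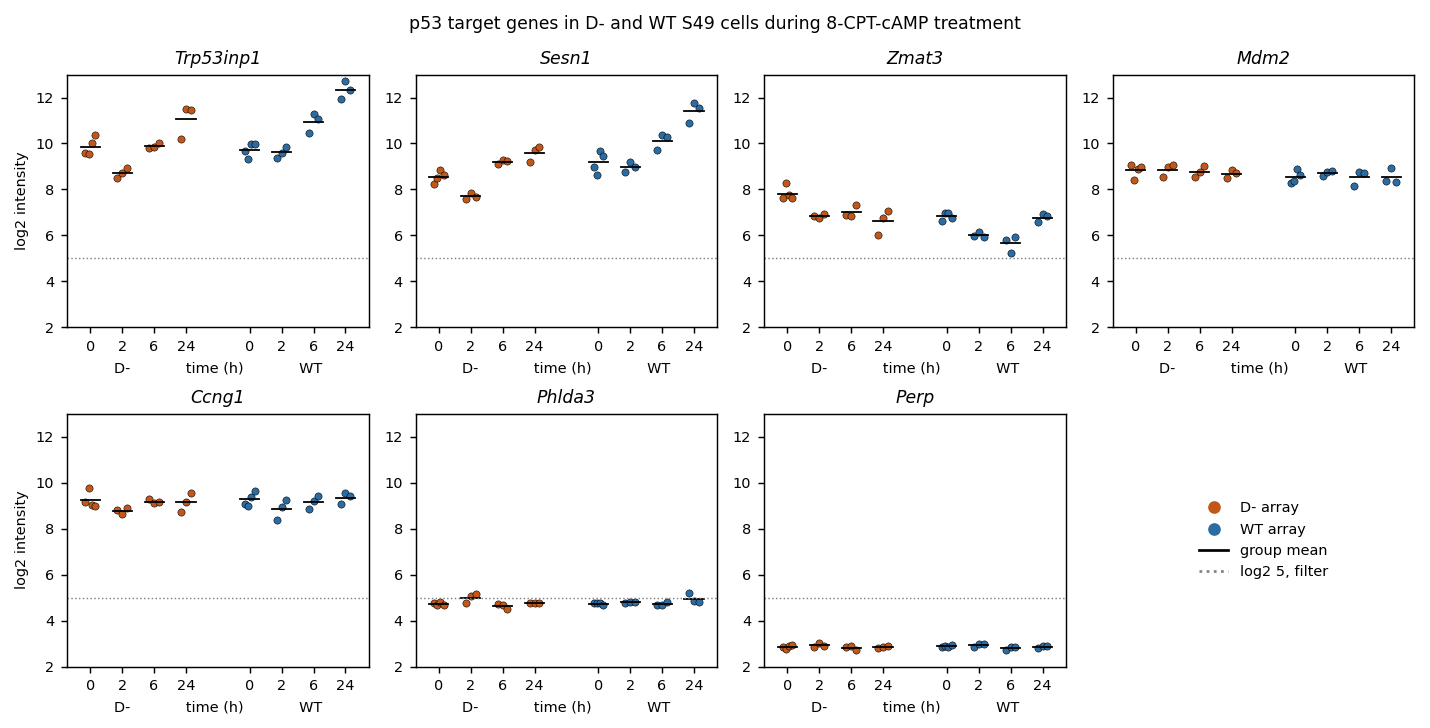
Log2 intensity of the 7 measured genes on each array (points) with group means (bars), by line and hours of 8-CPT-cAMP. Trp53inp1 and Sesn1 reach 12.32 and 11.39 on average in WT cells at 24 h, while Perp stays between 2.70 and 3.03 on all 26 arrays.

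Trp53inp1 encodes a stress-induced nuclear protein that acts with p53 and in autophagy. On D- arrays its level was 9.57, 9.53, 10.00 and 10.35 untreated, 8.48, 8.72 and 8.91 at 2 h, 9.80, 9.84 and 10.00 at 6 h, and 10.20, 11.51 and 11.44 at 24 h. On WT arrays it was 9.65, 9.32, 9.97 and 9.97 untreated, 9.37, 9.60 and 9.86 at 2 h, 10.47, 11.27 and 11.08 at 6 h, and 11.93, 12.71 and 12.32 at 24 h. All D- arrays at 2 h lay below all untreated D- arrays, and all WT arrays at 6 and 24 h lay above all untreated WT arrays. At 24 h one D- array, 10.20, lay under the highest untreated D- array. Trp53inp1 rose in WT cells by 1.21 ± 0.28 (SE) at 6 h (2.31-fold, adjusted p = 0.00174) and by 2.59 at 24 h (6.02-fold, adjusted p = 1.05e-07). In D- cells it fell by 1.16 ± 0.28 (SE) at 2 h (adjusted p = 0.00402), differed by 0.01 at 6 h (95% interval -0.57 to 0.59, adjusted p = 0.979), and rose by 1.19 at 24 h (2.27-fold, adjusted p = 0.00217). At 2 h the WT difference was -0.12 (adjusted p = 0.818). Within the clusters of 10 and 16 arrays the 24 h difference of Trp53inp1 was 0.65 and 1.30 in D- cells, and 2.44 and 2.54 in WT cells. Within the cluster of 16 the adjusted p was 4.81e-05 in D- cells and 9.23e-08 in WT cells. A second probe set read 2.28 to 2.46 on all 26 arrays and was not tested.

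Sesn1 encodes sestrin 1, a stress protein that restrains the growth kinase mTORC1. On D- arrays its level was 8.24, 8.50, 8.84 and 8.63 untreated, 7.60, 7.85 and 7.66 at 2 h, 9.09, 9.30 and 9.23 at 6 h, and 9.19, 9.71 and 9.85 at 24 h. On WT arrays it was 8.99, 8.64, 9.66 and 9.47 untreated, 8.75, 9.19 and 8.98 at 2 h, 9.73, 10.36 and 10.26 at 6 h, and 10.87, 11.77 and 11.54 at 24 h. In D- cells the 2 h arrays all lay below the untreated ones and the 6 and 24 h arrays above them, and in WT cells the 6 and 24 h arrays lay above the untreated ones. Sesn1 rose in WT cells by 0.93 ± 0.23 (SE) at 6 h (1.90-fold, adjusted p = 0.00363) and by 2.20 at 24 h (4.59-fold, adjusted p = 8.95e-08). In D- cells it fell by 0.85 ± 0.23 (SE) at 2 h (adjusted p = 0.0115), then rose by 0.65 at 6 h (1.57-fold, adjusted p = 0.0382) and by 1.03 at 24 h (2.05-fold, adjusted p = 0.00159). The D- rise at 6 h lost its call without any 1 of 6 of the 7 arrays compared, all but the third untreated one, with adjusted p between 0.0555 and 0.117. Over all arrays both other Sesn1 probe sets were called there, at 0.72 (adjusted p = 0.0134) and 0.78 (adjusted p = 0.024). The WT difference at 2 h was -0.22 (adjusted p = 0.563), and was called within the cluster of 16 (-0.48, adjusted p = 0.016). Within the clusters of 10 and 16 the 24 h difference of Sesn1 was 0.81 and 1.05 in D- cells, and 2.05 and 2.08 in WT cells. Within the cluster of 16 the adjusted p was 5.05e-05 in D- cells and 9.03e-08 in WT cells. Both other Sesn1 probe sets gave the same called direction at 24 h in each line, 2.01 and 1.85 higher in WT cells and 1.05 and 1.04 higher in D- cells. At 2 h in D- cells they gave -0.71 (adjusted p = 0.0198) and -0.45 (adjusted p = 0.25), and only the first was called.

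Zmat3 encodes an RNA-binding zinc finger protein that acts on the splicing and stability of transcripts. On D- arrays its level was 7.62, 8.26, 7.77 and 7.62 untreated, 6.85, 6.75 and 6.95 at 2 h, 6.89, 6.85 and 7.33 at 6 h, and 6.02, 6.75 and 7.04 at 24 h. On WT arrays it was 6.62, 6.96, 6.99 and 6.76 untreated, 5.99, 6.15 and 5.91 at 2 h, 5.80, 5.22 and 5.92 at 6 h, and 6.56, 6.91 and 6.86 at 24 h. The untreated D- arrays lay above every other array of the series, and WT arrays at 24 h lay within or just under the range of untreated WT arrays. Zmat3 fell in D- cells by 0.97 ± 0.21 (SE) at 2 h (adjusted p = 0.00153), by 0.79 at 6 h (adjusted p = 0.00576) and by 1.21 at 24 h (adjusted p = 0.000105). In WT cells it fell by 0.82 ± 0.21 (SE) at 2 h (adjusted p = 0.00555) and by 1.19 at 6 h (adjusted p = 0.000128). Within the clusters of 10 and 16 arrays the 6 h difference of Zmat3 was -1.06 and -0.60 in D- cells, and -0.99 and -1.31 in WT cells. Within the cluster of 16 the adjusted p was 0.0515 in D- cells and 0.000501 in WT cells. At 24 h the D- difference was -1.92 within the cluster of 10 and -0.80 within that of 16 (adjusted p = 0.0114 in the latter). At 24 h over all arrays the WT difference was -0.06 (95% interval -0.49 to 0.38, adjusted p = 0.855).

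Mdm2, the ubiquitin ligase that restrains p53, had no call in any of the 10 comparisons on its brightest probe set. On D- arrays it read 9.07, 8.42, 8.87 and 8.96 untreated, 8.53, 8.98 and 9.06 at 2 h, 8.52, 8.76 and 9.00 at 6 h, and 8.48, 8.84 and 8.71 at 24 h. On WT arrays it read 8.26, 8.37, 8.89 and 8.64 untreated, 8.57, 8.75 and 8.82 at 2 h, 8.16, 8.77 and 8.71 at 6 h, and 8.35, 8.94 and 8.33 at 24 h. Treated and untreated arrays overlapped in both lines at every time. At 24 h the D- difference was -0.16 (95% interval -0.57 to 0.26) and the WT difference 0.00 (95% interval -0.41 to 0.41). A second Mdm2 probe set fell in D- cells at 24 h, with 7.69 ± 0.12 (SD, n = 3) at 24 h against 8.10 ± 0.29 (SD, n = 4) untreated, by 0.42 ± 0.13 (SE, limma adjusted p = 0.0146). Over the 26 arrays the probe sets of Mdm2 correlated at r = 0.38, so Mdm2 is uncertain at 24 h in D- cells.

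Ccng1, which encodes cyclin G1, a partner of phosphatase 2A and of Mdm2, averaged 9.24, 8.78, 9.18 and 9.15 in D- cells at 0, 2, 6 and 24 h, and 9.27, 8.85, 9.16 and 9.36 in WT cells. The 2 h differences, -0.46 in D- cells (adjusted p = 0.166) and -0.42 in WT cells (adjusted p = 0.194), were not called, nor was any other. Its 3 probe sets correlated over the 26 arrays at r = -0.12, 0.42 and 0.60. One of the dimmer ones fell in WT cells at 24 h by 0.43 ± 0.16 (SE, adjusted p = 0.031) where the brightest one did not pass, so no direction is given for Ccng1. Phlda3, whose protein binds membrane lipids and blocks the kinase AKT, read 4.49 to 5.20 and reached log2 5 on only 3 arrays. Every group mean of Phlda3 lay under 5, between 4.64 and 4.99, and no fold is given. It passed the filter only through 2 arrays of D- cells at 2 h and 1 of WT cells at 24 h, so its differences there are tied to that choice and no test of them is given. Perp, a membrane protein of p53-driven death and of cell junctions, read 2.70 to 3.03 and was not tested.

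**Figure D2:**
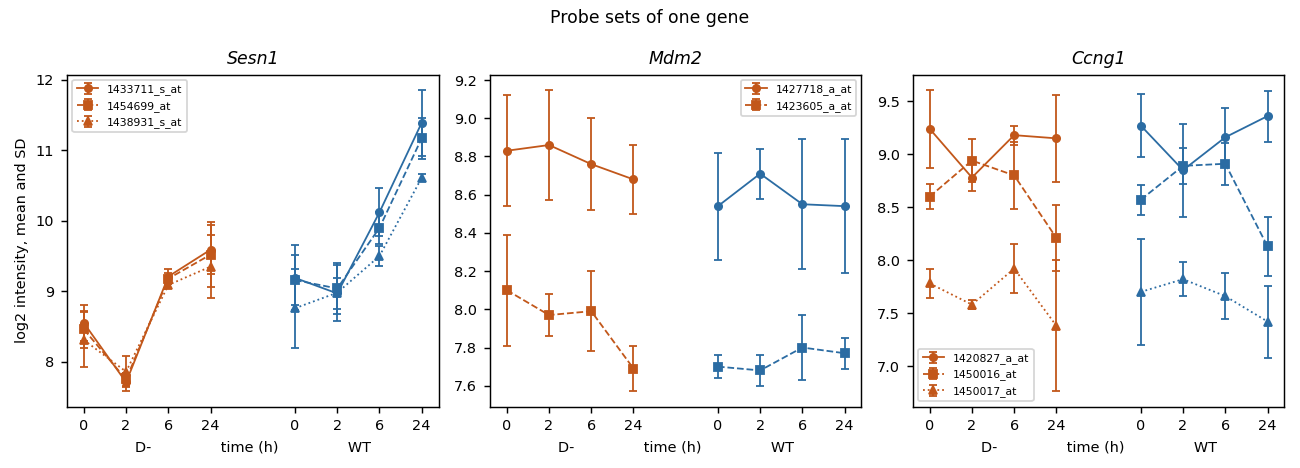
Mean log2 intensity with SD (bars) of each tested probe set of Sesn1, Mdm2 and Ccng1, by line and hours of 8-CPT-cAMP, on axes that differ between genes. The 3 Sesn1 probe sets run together, while the 3 of Ccng1 do not.

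Calls among the 6 tested genes stand here beside those among all 7435. In D- cells 3 of the 6 fell at 2 h, namely Trp53inp1, Sesn1 and Zmat3, where 22.3% of all tested genes were called, 9.05% higher and 13.2% lower. At 6 h in D- cells Sesn1 rose and Zmat3 fell (31.8% of all called, 16.2% higher and 15.6% lower), and at 24 h Trp53inp1 and Sesn1 rose and Zmat3 fell (34.7% called, 17.1% higher and 17.6% lower). In WT cells 1 of the 6, Zmat3, fell at 2 h (25.1% of all called, 11.2% higher and 13.9% lower). At 6 h in WT cells Trp53inp1 and Sesn1 rose and Zmat3 fell (38.2% called, 19.1% higher and 19.1% lower), and at 24 h Trp53inp1 and Sesn1 rose (53.8% called, 26.4% higher and 27.5% lower). With 6 genes these counts are near the background, apart from 3 of 6 falling at 2 h in D- cells, and no test of the group was made. Of these 3, Sesn1 was not called at 2 h in D- cells on 1 of its probe sets (-0.45, limma adjusted p = 0.25). Within the smaller array cluster the differences were -0.77 for Sesn1 and -1.09 for Zmat3. That cluster holds 1 D- array at 2 h, so no call is read from it. The genes were chosen with earlier results of these data known, so the count is a description. Mdm2, Ccng1 and Phlda3 had no call on the probe set that stood for them. Phlda3 is among the 6 only because 3 arrays reached the filter.

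**Figure D3:**
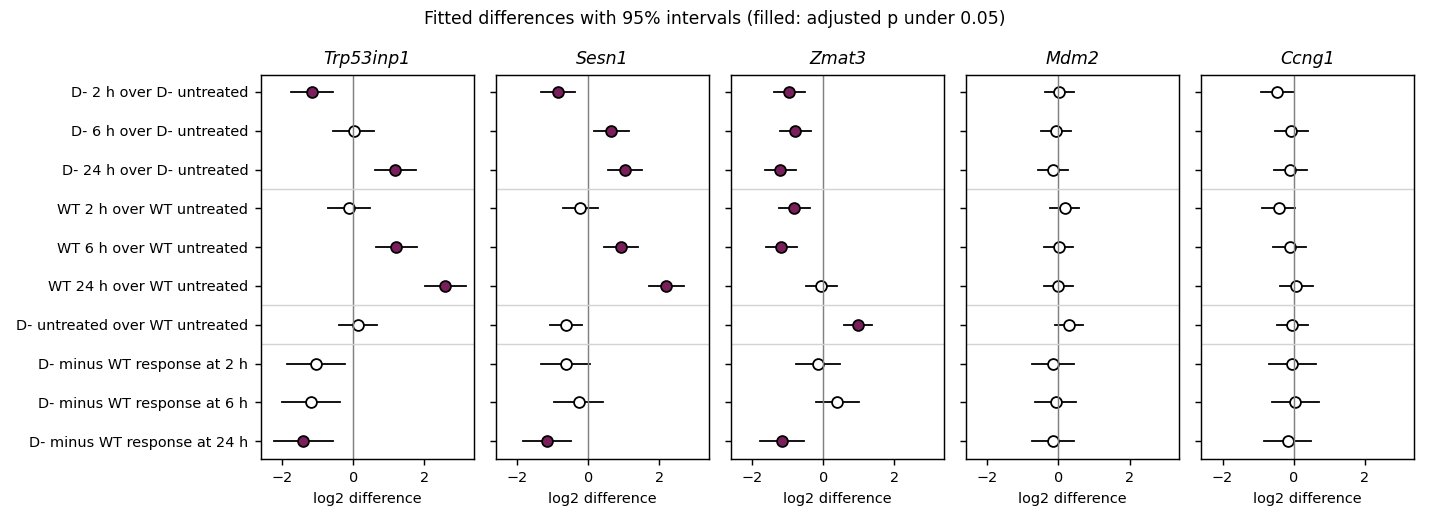
Fitted log2 differences (points, with 95% intervals) for 5 genes, by comparison: each treated time against untreated cells, untreated D- against untreated WT cells, and the response of D- minus that of WT cells, with filled points where the adjusted p is under 0.05. Trp53inp1 is 1.19 higher in D- cells and 2.59 higher in WT cells at 24 h, and Zmat3 is 1.21 lower in D- cells and 0.06 lower in WT cells.

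Before treatment 1 of the 6 genes differed between the lines, where 5.00% of all tested genes were called, 1.91% higher and 3.09% lower in D- cells. Zmat3 averaged 7.82 ± 0.30 in untreated D- cells and 6.83 ± 0.18 in untreated WT cells (SD, n = 4 each), and was 0.98 ± 0.19 (SE) higher in D- cells (1.98-fold, adjusted p = 0.00277), with no overlap of arrays. Within the clusters of 10 and 16 this difference was 1.15 (adjusted p = 0.187) and 0.82 (0.0427). Sesn1 averaged 8.55 ± 0.25 in untreated D- cells and 9.19 ± 0.46 in untreated WT cells, a difference of -0.64 ± 0.22 (SE) that was not called (adjusted p = 0.115). Another Sesn1 probe set gave -0.70 ± 0.20 and was called (limma adjusted p = 0.0474), and the call on the brightest Sesn1 probe set was gained without the second untreated WT array (-0.82, adjusted p = 0.031). Sesn1 was -0.44 (adjusted p = 0.32) and -0.84 (0.00174) within the clusters of 10 and 16. Trp53inp1 differed by 0.14 ± 0.26 (SE, 95% interval -0.40 to 0.67, adjusted p = 0.939) and Mdm2 by 0.29 ± 0.18 (adjusted p = 0.572). The other Mdm2 probe set gave 0.40 ± 0.12 (SE, 95% interval 0.16 to 0.65, limma adjusted p = 0.0554), just short of a call.

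The response at 24 h differed between the lines for 3 of the 6 genes by limma's interaction term, where 12.3% of all tested genes were called, 7.32% higher and 5.00% lower, and all 3 were lower in D- than in WT cells. The D- minus WT difference of response was -1.40 ± 0.39 (SE) for Trp53inp1 (adjusted p = 0.0219), -1.17 ± 0.33 for Sesn1 (adjusted p = 0.0233) and -1.16 ± 0.29 for Zmat3 (adjusted p = 0.0116). The Trp53inp1 call was lost without the first D- 24 h array (-0.98, adjusted p = 0.0787) or the second WT 24 h array (-1.21, adjusted p = 0.0851). The Sesn1 call was lost without the first D- 24 h array (-0.97, adjusted p = 0.0838), the second WT 24 h array (-0.98, adjusted p = 0.0929) or the third (-1.09, adjusted p = 0.0664), and the other Sesn1 probe sets gave -0.96 (adjusted p = 0.0419) and -0.81 (adjusted p = 0.164). The Zmat3 call held without each array in turn, with adjusted p between 0.00414 and 0.0439. It did not hold within the cluster of 16 arrays (-0.81, adjusted p = 0.0938), and the value within the cluster of 10 was -1.69. Within the clusters of 10 and 16 the values were -1.80 and -1.24 for Trp53inp1, and -1.24 and -1.03 for Sesn1. In the cluster of 16 the adjusted p was 0.00249 for Trp53inp1 and 0.00227 for Sesn1. At 2 h and at 6 h limma called a difference of response for 0 of the 6 genes, where 0.242% (0.0538% higher, 0.188% lower) and 0.592% (0.148% higher, 0.444% lower) of all tested genes were called, and 1 gene had an unadjusted p under 0.05 at each time. That gene was Trp53inp1, with -1.04 ± 0.39 (SE) at 2 h (adjusted p = 0.622) and -1.19 ± 0.39 at 6 h (adjusted p = 0.35). With the cluster as a block both values were called for Trp53inp1 (adjusted p = 0.0392 at 2 h and 0.0078 at 6 h). The clusters were drawn from the within-group deviations of these same arrays. A block for them takes up residual spread by construction, here to an SE of 0.23, so these calls are no added support.

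The order of the mean levels over the 8 groups differed between genes. Trp53inp1 was highest in WT cells at 24 h, with no overlap with the next group, then in D- cells at 24 h and WT cells at 6 h, which overlapped. The means of D- cells at 6 h, untreated D- cells, untreated WT cells and WT cells at 2 h followed with neighbours overlapping, and D- cells at 2 h were lowest with no overlap. Sesn1 was likewise highest in WT cells at 24 h and lowest in D- cells at 2 h, without overlap at either end and with overlap between all neighbours in between. Zmat3 was highest in untreated D- cells, without overlap, and its lower neighbours overlapped down to WT cells at 6 h. For Mdm2, Ccng1, Phlda3 and Perp every pair of neighbouring groups overlapped.

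**Figure D4:**
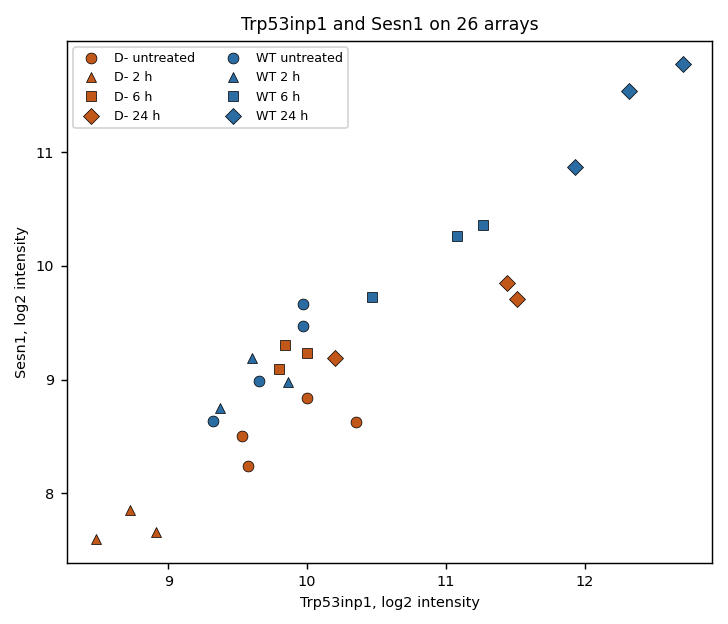
Log2 intensity of Trp53inp1 (horizontal) against Sesn1 (vertical) on the 26 arrays, with colour for the line and shape for the time. WT arrays at 24 h lie at the upper right and D- arrays at 2 h at the lower left.

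Trp53inp1 and Sesn1 correlated over the 26 arrays at r = 0.94, and at r = 0.80 after group means were taken off. These arrays share 8 group means and the 2 array clusters, and the values are a description. Zmat3 correlated at r = -0.17 with Trp53inp1 and -0.29 with Sesn1. Trp53inp1 and Mdm2 correlated at r = -0.10 over the arrays and at 0.70 after group means were taken off. Among all tested genes, Trp53inp1 was most like Slc38a10 (r = 0.964), Gnb4 (0.939) and Sesn1 (0.938) over the 26 arrays. Sesn1 was most like Rdh14 (0.955), Arhgap45 (0.954) and Ttc3 (0.953), and Zmat3 most like Tnk2 (0.848), Polr3g (0.836) and Trmt10a (0.826). The highest values were 0.836 for Mdm2 with Zfp445, 0.784 for Ccng1 with Zfp106 and 0.782 for Phlda3 with Clrn3.

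A further 53 p53 regulators and targets were listed, of which 44 had a probe set of their own symbol and 35 were tested. In D- cells 4 of the 35 rose and 12 fell at 2 h (9.05% and 13.2% of all tested genes), 6 rose and 9 fell at 6 h (16.2% and 15.6%), and 6 rose and 8 fell at 24 h (17.1% and 17.6%). In WT cells 6 rose and 9 fell at 2 h (11.2% and 13.9% of all tested genes), 6 rose and 11 fell at 6 h (19.1% and 19.1%), and 9 rose and 13 fell at 24 h (26.4% and 27.5%). No test of the list was made. The falls in D- cells at 6 and 24 h and in WT cells at 6 h include the death gene Bbc3. It passed the filter only through untreated arrays, so its falls and its part in the medians are tied to that choice. Median differences over the 35 genes were -0.27, -0.18 and -0.06 in D- cells and -0.13, -0.13 and -0.02 in WT cells at 2, 6 and 24 h, where the medians of all genes lay between -0.02 and 0. Without the second D- 24 h array the number called in D- cells at 24 h was 9, and without the second WT 6 h array that in WT cells at 6 h was 10.

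Cdkn1a, the p21 inhibitor of cyclin-dependent kinases and the most used readout of p53, read 3.44 to 3.96 on all 26 arrays and was not tested. The death genes Pmaip1 (2.94 to 3.50) and Bbc3 (3.99 to 5.42), which encode NOXA and PUMA, were also dim. Pmaip1 was not tested. Bbc3 averaged 4.67, 4.45 and 4.30 at 2, 6 and 24 h in D- cells against 5.11 untreated, and 4.74, 4.53 and 4.92 in WT cells against 5.05 untreated. It passed the filter through 4 untreated arrays only, so that its lower treated levels are tied to that choice, and they are given as a description with no test. No probe set named Bax only, and Bax was not analysed here.

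Among the 9 tested targets for arrest and repair, 2 rose and 3 fell at 2 h, 2 rose and 1 fell at 6 h, and 4 rose and 1 fell at 24 h in D- cells, and 3 rose and 2 fell, 2 rose and 1 fell, and 5 rose and 1 fell in WT cells. The share of all tested genes called in either direction was 22.3%, 31.8% and 34.7% in D- cells and 25.1%, 38.2% and 53.8% in WT cells at these times. Gadd45a, a stress protein of repair and arrest, averaged 11.49, 10.10 and 11.38 at 2, 6 and 24 h in D- cells against 8.38 untreated, and 11.55, 10.40 and 12.20 in WT cells against 8.35 untreated. It rose at each time in both lines, by 3.10 ± 0.27 (SE, adjusted p = 2.19e-08) in D- cells and 3.21 ± 0.27 (adjusted p = 1.3e-08) in WT cells at 2 h. Within the cluster of 10 the D- value of Gadd45a at 6 h was 1.54. Ddit4, an inhibitor of mTORC1, rose by 2.57 in D- cells (adjusted p = 3.47e-06) and by 1.72 in WT cells (adjusted p = 0.000374) at 2 h. Other genes of this list were lower. Xpc averaged 4.53 at 2 h in D- cells, under the filter of log2 5, against 6.37 untreated. In WT cells Xpc averaged 5.70 at 2 h against 7.04 untreated. Gtse1 averaged 5.42 at 24 h in WT cells against 7.11 untreated. Btg2, an antiproliferative gene, rose at 24 h by 1.26 in D- cells (adjusted p = 0.00071) and by 2.19 in WT cells (adjusted p = 3.79e-07). It was the only 1 of the 35 listed genes called before treatment, a count near the 5.00% of all tested genes called there (1.91% higher). Btg2 averaged 10.18 ± 0.25 in untreated D- cells and 8.84 ± 0.29 in untreated WT cells (SD, n = 4 each), 1.34 ± 0.24 (SE) higher in D- cells (limma adjusted p = 0.00122). Within the cluster of 10 arrays this difference of Btg2 between untreated lines was not called (1.18, adjusted p = 0.0977), and its D- value at 24 h was 0.94.

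Among the 8 tested death genes, 0, 1 and 0 rose and 3, 4 and 3 fell at 2, 6 and 24 h in D- cells, and 0, 1 and 1 rose and 2, 4 and 4 fell in WT cells, where 22.3%, 31.8% and 34.7% of all tested genes in D- cells and 25.1%, 38.2% and 53.8% in WT cells were called. Bbc3, chosen by its untreated level, is counted among those that fell in D- cells at 6 and 24 h and in WT cells at 6 h. Bid, a BH3-only protein cleaved by caspase 8, averaged 8.41 ± 0.30 (SD, n = 3) at 2 h against 10.57 ± 0.16 (n = 4) in untreated D- cells, and fell by 2.16 (limma adjusted p = 1.78e-10). In WT cells Bid fell by 1.87 ± 0.14 (SE) at 2 h (adjusted p = 1.53e-09). Aen, a nuclease induced in apoptosis, fell by 1.38 in D- cells (adjusted p = 0.000132) and by 1.91 in WT cells (adjusted p = 2.23e-06) at 6 h. Fas, the death receptor, rose in WT cells at 24 h by 1.29 ± 0.30 (SE, adjusted p = 0.00115), and its D- difference was 0.77 (adjusted p = 0.058). The difference of the Fas response between the lines was -0.52 (adjusted p = 0.513). The WT value of Fas at 24 h was 0.35 within the cluster of 10. Its D- value was called without the first D- 24 h array (1.06, adjusted p = 0.0147) and within the cluster of 16 (1.21, adjusted p = 0.00106). Siva1 fell by 2.05 in WT cells at 24 h (adjusted p = 4.33e-06).

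Among the 12 tested regulators of p53, 1 rose and 4 fell at 2 h, 1 rose and 4 fell at 6 h, and 2 fell at 24 h in D- cells, and 2 rose and 3 fell, 1 rose and 3 fell, and 1 rose and 5 fell in WT cells. Of all tested genes 22.3%, 31.8% and 34.7% in D- cells and 25.1%, 38.2% and 53.8% in WT cells were called at these times. Ppm1d, the phosphatase WIP1 that switches off p53 signalling and is itself a p53 target, rose at 2 h by 0.97 in D- cells (adjusted p = 1.62e-05) and by 1.06 ± 0.14 (SE) in WT cells (adjusted p = 5.05e-06). Mdm4, the Mdm2 relative that also restrains p53, was not called at any time, with differences of -0.37, -0.04 and -0.02 in D- cells and -0.21, 0.08 and 0.19 in WT cells. Atm, the kinase that activates p53 at DNA breaks, fell in WT cells at 24 h by 1.05 ± 0.26 (SE, adjusted p = 0.00154), but was -0.34 within the cluster of 10 arrays. Of the 6 other targets, 1, 2 and 2 rose and 2, 0 and 2 fell at 2, 6 and 24 h in D- cells. In WT cells 1, 2 and 2 rose and 2, 3 and 3 fell, beside the same shares of all tested genes. Trp53i13 averaged 5.21 at 2 h in WT cells against 6.67 untreated. Trp53inp2, a relative of Trp53inp1 in autophagy, rose at each time in both lines, by 2.59 in D- cells (adjusted p = 5.77e-06) and 3.04 in WT cells (adjusted p = 2.32e-07) at 24 h. Untreated Trp53inp2 means were near the filter, at 5.42 in D- cells and 5.05 in WT cells.

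The difference of response at 24 h was called for 4 of the 35 listed genes, near the 12.3% of all tested genes (7.32% higher), and all 4 were higher in D- than in WT cells. Chek1, the replication checkpoint kinase, averaged 8.70 ± 0.25 in D- cells and 6.46 ± 1.05 in WT cells at 24 h (SD, n = 3 each), a difference of response of 2.39 ± 0.42 (SE, limma adjusted p = 0.000554). The others were Gtse1, a G2 phase gene that holds p53 back (1.23 ± 0.18, adjusted p = 0.000139), Pidd1, a death domain protein (1.05 ± 0.22, adjusted p = 0.00238) and Chek2, the DNA damage kinase (0.74 ± 0.20, adjusted p = 0.0153). The Chek2 call was lost without the third WT 24 h array (adjusted p = 0.0599) and with only the groups compared (adjusted p = 0.0619). Within the cluster of 10 arrays the values were 1.16 for Chek1, 1.24 for Gtse1, 0.68 for Pidd1 and 0.44 for Chek2. Without the first WT 24 h array 8 listed genes were called, of which Btg2 (-1.16, adjusted p = 0.0355) and Ei24 (-0.32, adjusted p = 0.0444) were lower in D- cells. Over all arrays the Btg2 value was -0.94 (adjusted p = 0.106), and it was called with a block for the array cluster (adjusted p = 0.0136). That block was drawn from deviations of the same arrays, so the call is no added support. At 2 and 6 h limma called 0 of the 35, where 0.242% and 0.592% of all tested genes were called, with 4 and 3 at an unadjusted p under 0.05.

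**Figure D5:**
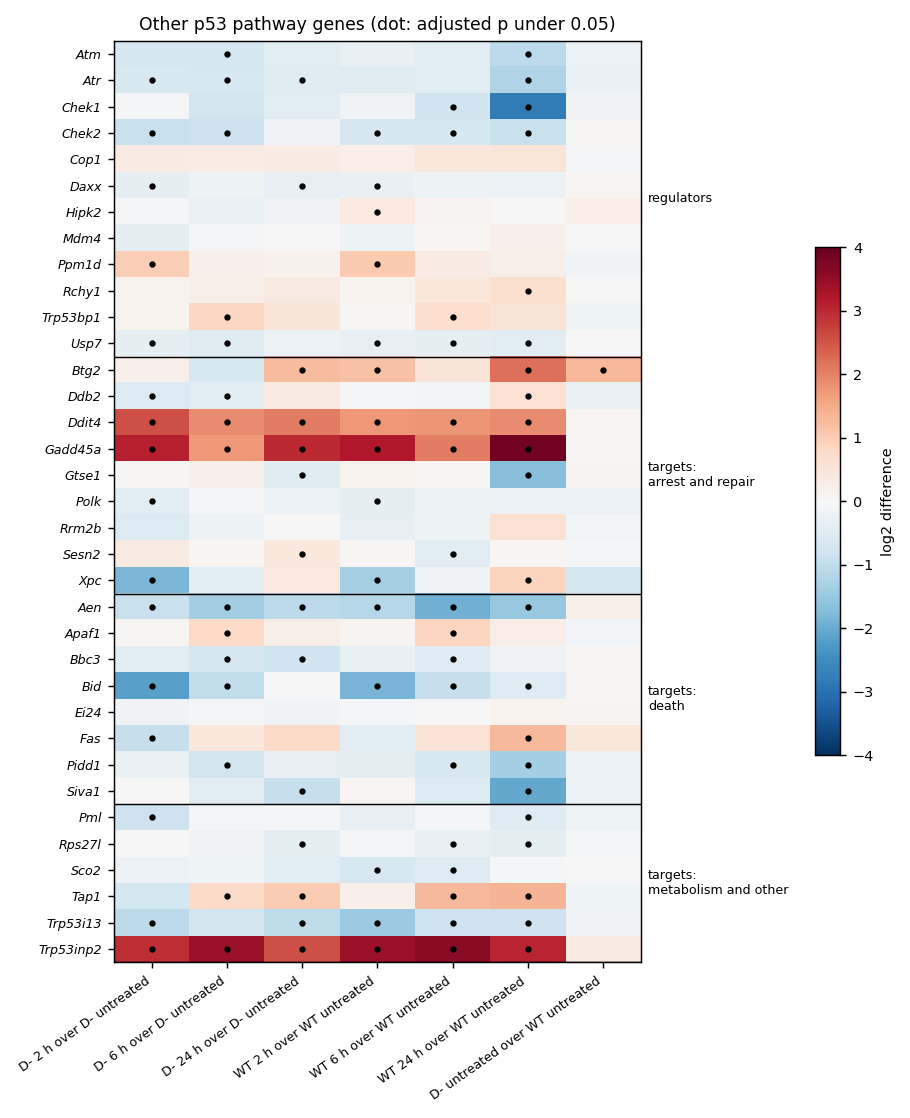
Log2 differences from untreated cells (colour, blue lower and red higher) for the 35 tested p53 pathway genes, by list, in D- and WT cells at 2, 6 and 24 h, with untreated D- against WT cells in the last column and dots where the adjusted p is under 0.05. Gadd45a and Trp53inp2 are higher at all times in both lines, and values of genes whose means lie under log2 5, such as Bbc3, are fitted values.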

How the data were processed

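RNA from 26 samples of S49 cells was hybridised to single-colour Affymetrix arrays, 1 per sample, and grouped by the labels. Per the submitters' processing notes the authors used GCRMA, and the deposited intensity values are linear. The GCRMA version, and whether both lines were normalized together, are not stated in the sources at hand. GCRMA equalises the arrays, so a shift shared by most genes would not be seen, and it compresses dim values. The deposited intensity was put on the log2 scale as it stood, without a pseudocount. Of 22690 probe sets 64 controls were dropped, and 20380 had 1 gene symbol, 691 several and 1555 none. Those at log2 5 (intensity 32) or above on 3 arrays or more were tested, 12724 in all, and the brightest stood for its gene. limma 3.58.1 in R 4.3.3 was fitted with 8 group means, 18 residual and 3.34 prior degrees of freedom and 10 contrasts. It was tested on simulated data with independent noise on each array. That noise lacked the array clusters, so the simulation does not bear on them. No fold is given where both group means lie under log2 5. The number of arrays limits the precision. The text names all members, 9 set pathway genes and some, not all, of the called genes with the largest changes of each list. It names the 3 genes most like Trp53inp1, Sesn1 and Zmat3, and 1 each for Mdm2, Ccng1 and Phlda3. Members and lists were chosen with earlier results of these data known. The 2 array clusters come from the sign of each array on the main axis of within-group deviations, so fits by cluster were chosen after seeing the data. Other alternatives changed the eBayes settings, array weights, arrays fitted, normalization, filter, probe set summary and replicate block, or left out an array. Promoters came from RefSeq on GRCm38.p6, and no window of Trp53inp1, Zmat3 or Perp was used here. Figures were drawn with matplotlib 3.10.9.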

Additional observations from a re-analysis of the deposited data

Results flagged for a closer look

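The 24 h response of D- cells minus that of WT cells, tested as an interaction term in limma, was below 0 for Trp53inp1 (-1.40, adjusted p = 0.0219), Sesn1 (-1.17, adjusted p = 0.0233) and Zmat3 (-1.16, adjusted p = 0.0116). Trp53inp1 was 1.19 higher in treated than in untreated D- cells and 2.59 higher in WT cells, and Sesn1 was 1.03 higher in D- cells and 2.20 higher in WT cells. Zmat3 was -1.21 in D- cells and -0.06 in WT cells on the same scale. Its levels at 24 h overlapped between lines, at 6.60 in D- and 6.78 in WT cells on average, and untreated levels differed (7.82 and 6.83). The 3 interaction results share the 24 h and untreated arrays of both lines. By Dixon's 95% criterion 0 of the 26 groups of 4 untreated arrays, over the 13 probe sets, held an outlying value. The largest gaps relative to the group's range among bright genes were 0.79 for Ccng1 and 0.768 for Zmat3 in untreated D- cells, both below the criterion.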

How the results depend on the processing

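Of 1262 alternative values for the 60 results on single members, 1217 kept their side of the threshold, 29 lost a call, 16 gained one and 0 called values reversed. The number of members called between untreated D- and WT cells went to 2 with array weights, with the replicate block, with the array cluster as a block and within the cluster of 16 arrays. For the difference of response it went to 1 at 2 h with the cluster block and within the cluster of 16, and to 1 at 6 h with array weights, the cluster block and the cluster of 16. At 24 h it went to 1 with only the groups compared. It went to 1 for D- cells at 6 h with no filter and within the cluster of 16, and to 2 for WT cells at 2 h within the cluster of 16. The cluster of 10 arrays leaves 2 residual degrees of freedom and 1 array in each treated group, so no count for treated cells is read from it. The 29 lost calls include such fits. Between untreated lines limma called 0 there (1 at an unadjusted p under 0.05). Without each array in turn the counts ran from 3 to 4, 1 to 2 and 3 to 3 in D- cells and from 1 to 1, 3 to 3 and 2 to 3 in WT cells at 2, 6 and 24 h. They ran from 1 to 2 between untreated lines, and from 0 to 0, 0 to 0 and 1 to 3 for the difference of response. The gene gained in D- cells at 2 h and in WT cells at 24 h was Phlda3. It passed the filter only through arrays of those groups, so its calls, also among the 16 gained, are tied to that choice. The cause of these changes was not tested. Replicate numbers were not taken to pair the samples: between treated and untreated arrays, deviations of the same number correlated at 0.37 to 0.60 for number 1, -0.47 to -0.24 for number 2 and 0.10 to 0.36 for number 3. Between untreated lines the 4 numbers gave 0.31, 0.20, 0.04 and 0.27. The number runs with the array cluster, since number 1 of all 8 groups lies in the cluster of 10 and number 3 of all 8 in the cluster of 16. With the replicate block Sesn1 was called between untreated lines (adjusted p = 0.0235), and the block changed no other count of members by over 1.5 times. Of 104 called results on the listed pathway genes, 71 kept their call without each array in turn, 104 with the cluster block and 92 within the cluster of 16. The cluster block was drawn from deviations of these same arrays and takes up residual spread. Calls gained or kept with it are therefore no added support. Dim probe sets limit what can be seen of Perp, Phlda3 and Cdkn1a.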
